A study of Mus musculus with 26 samples.

Results

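MHC class II molecules present peptides from ingested proteins to helper T cells. The 9 genes described here encode parts of that pathway and were followed across sorted mouse bone marrow leukocytes: H2-Aa, H2-Ab1, H2-Eb1, Cd74, H2-DMa, H2-DMb1, Ctss, Ifi30 and Ciita. They were chosen by name, as the probes of the deposited raw matrix whose symbol equals one of these genes, which gave 13 of its 25697 probes and 9 of its 18138 symbols. The mice were male SCID animals (CB17/Icr-Prkdcscid) aged 6 to 8 weeks, a strain whose defect in DNA end joining leaves it without mature B and T cells. All of them, controls included, carried engrafted human acute lymphoblastic leukemia, and the femoral marrow was sorted so that leukemia cells were gated out. They had been randomized to restraint stress while receiving propranolol, which blocks the beta-adrenergic receptors for noradrenaline and adrenaline, to restraint stress alone, or to home cage control. Each condition was run in 2 experiments, with 3 restraint plus propranolol, 5 restraint and 5 control arrays in each. This gives 6 groups and 6, 10 and 10 arrays per condition. Nothing in the labels ties an array to a single mouse, so the spread between arrays may be partly technical. No group received propranolol without restraint.

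The peptide-binding molecule is a pair of chains. In the mouse, H2-Aa and H2-Ab1 encode the alpha and beta chains of I-A, and H2-Eb1 the beta chain of I-E. Cd74 encodes the invariant chain, which fills the binding groove until endosomal proteases such as cathepsin S (Ctss) trim it. The H2-DM dimer (H2-DMa and H2-DMb1) then exchanges its last fragment for a peptide, while the thiol reductase GILT (Ifi30) unfolds disulfide-bonded antigens. Ciita encodes the transactivator that switches on class II genes through factors held at the conserved X and Y boxes of their promoters. In marrow, dendritic cells, macrophages, some monocytes and maturing B cells carry class II molecules, while neutrophils and red cell precursors largely lack them.

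RefSeq's table of promoters (mouse build GRCm38.p6) held windows for 6 of the 9 members, and the 250 bases before each annotated start were searched on both strands. These are sequences of the reference build and were not read from the CB17 mice studied, whose promoters may differ. The motifs were picked after reading these sequences. The stretches below are shown because they carry the X and Y box cores of a class II chain and of a DM chain and the Y box core of the A alpha chain, and beside them a lysosomal protease gene without either. Capitals mark matches to ACNGATGA (X box core), TGATTGG (Y box core), TGACGTCA (the cAMP response element, which is its own reverse complement) or GAAANNGAA (core of the interferon-stimulated response element), and each stretch is written 5′ to 3′ along the gene's strand.
H2-Eb1, chr17:34305757-34305836, plus strand: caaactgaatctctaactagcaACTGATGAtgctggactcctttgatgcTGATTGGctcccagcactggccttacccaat
H2-DMb1, chr17:34153081-34153160, plus strand: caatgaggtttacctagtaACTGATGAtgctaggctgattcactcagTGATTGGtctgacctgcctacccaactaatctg
H2-Aa, chr17:34287854-34287933, minus strand: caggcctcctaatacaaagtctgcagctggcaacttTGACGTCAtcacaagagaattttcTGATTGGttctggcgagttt
Ctss, chr3:95526706-95526785, plus strand: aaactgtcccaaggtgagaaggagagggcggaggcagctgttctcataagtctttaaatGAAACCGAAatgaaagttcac

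The X box core lay 88 to 81 bases before the start of H2-Eb1 and 91 to 84 before that of H2-DMb1, and the Y box core followed at 61 to 55 and at 63 to 57 bases before the start. H2-Aa held the Y box core (50 to 44 bases before its start) with the letters of the cAMP response element in front of it (74 to 67). ACNGATGA had no match there. This does not mean that H2-Aa lacks an X box, since only these letters were searched. Whether the TGACGTCA match is part of an X box was not tested. Of 32851 promoter windows, 721 (2.19%) held the X box core, 2375 (7.23%) the Y box core and 53 (0.161%) both. Among the class II genes outside the member list, H2-DMb2 and H2-Oa also held both. In H2-DMb2 the X box core lay 120 to 113 and the Y box core 92 to 86 bases before the start. In H2-Oa they lay farther apart, at 137 to 130 and 45 to 39. H2-Ob and H2-Eb2 held the Y box core without the X box core. The cAMP response element was in 508 windows (1.55%) and the interferon element core in 2342 (7.13%). H2-DMa and Ifi30 held none of the 4 motifs in these windows, which says only that these letters are not there.

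Levels are given as log2 of background-corrected, quantile-normalized intensity, and a change is a difference of such levels. Between 39.5% and 51.2% of the probes were detected on an array (detection p under 0.05), on average 46.1% on restraint plus propranolol, 46.8% on restraint and 48.2% on control arrays. The 5 pan-leukocyte markers, Ptprc (CD45) among them, and the 15 neutrophil markers on the array were detected on all 26 arrays. Genes from the list of erythroid (red cell) markers used below were detected in this leukocyte sort too, Tfrc on 26 and Alas2 on 23 arrays. All 13 member probes passed the filter of detection on at least 3 arrays. 10 of them, with at least 1 for each of 7 members, were detected on all 26 arrays. The exceptions were H2-DMa (24 arrays), the dimmest H2-Ab1 probe (20 arrays) and Ciita (8 arrays). Where a gene had several probes, the one with the highest mean stood for it. A probe's signal also depends on its own sequence, so levels of different genes are not set against each other.

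The comparison of restraint with control asks whether stress alters these transcripts. H2-Eb1, Cd74 and H2-Ab1, which encode the I-E beta chain, the invariant chain and the I-A beta chain, had the largest differences. Marrow leukocytes from restrained mice had 1.55 times the control level of H2-Ab1, and their Cd74 and H2-Eb1 levels were 1.72 and 1.83 times those of controls. Of these, H2-Ab1 alone passed the test. In all, 1 of the 9 members rose, 0 fell and 8 did not pass (limma, adjusted p under 0.05 over all 15061 probes tested). Over the 10927 genes tested, 245 were called (2.24%), of which 115 rose (1.05% of the genes tested) and 130 fell (1.19%). The change was above 0 in 9 of 9 members, with a median of 0.47 and a range from 0.10 (Ctss) to 0.87 (H2-Eb1), beside a median of -0.00 over all genes, of which 49.6% were above 0. The members share the same arrays, and several vary together from array to array. Their directions are therefore not independent, here or in the comparisons below. No member had all restraint arrays above all control arrays within both experiments, an order that 23 of all genes showed (0.21%).

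H2-Ab1, the I-A beta chain, read 9.35, 9.39, 8.82, 8.80 and 8.98 on the restraint arrays of experiment 1, against 8.64, 8.16, 9.04, 7.46 and 8.46 on the control arrays. In experiment 2 it read 9.64, 9.11, 9.55, 8.84 and 8.92 on restraint arrays, against 8.27, 8.21, 8.91, 8.72 and 9.17 on control arrays. Every restraint array lay above the control mean of its experiment, and the groups still overlapped, since the highest control array of each experiment reached into the restraint range. The mean was 9.14 ± 0.32 in restraint and 8.50 ± 0.51 in control arrays (SD, n = 10 each). The change was 0.64 ± 0.17 (SE; 95% interval 0.29 to 0.99; limma adjusted p = 0.0486).

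The 2 other H2-Ab1 probes did not pass, although they differed in the same direction. Probe ILMN_2913716 averaged 9.02 ± 0.43 on restraint and 8.11 ± 0.74 on control arrays (SD, n = 10 each), a change of 0.91 ± 0.25 SE (limma adjusted p = 0.0515). Probe ILMN_2631423 was detected on 9 of 10 restraint and 6 of 10 control arrays, and its change of 0.63 ± 0.31 SE had a limma adjusted p of 0.363. The called probe, ILMN_1226525, was the brightest of the 3.

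H2-Aa, the partner alpha chain of I-A, had a lowest, median and highest level of 8.82, 9.17 and 9.55 on restraint arrays, against 7.97, 8.94 and 9.34 on control arrays. As for H2-Ab1, all 10 restraint arrays exceeded the control mean of their experiment, and the ranges overlapped. The change was smaller, at 0.38 ± 0.15 SE (1.30 times the control level), and did not pass (limma adjusted p = 0.218).

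H2-Eb1, the I-E beta chain, had the largest change of the members. Its lowest, median and highest levels were 7.46, 8.22 and 8.93 on restraint arrays, against 6.25, 7.31 and 8.43 on control arrays. The SD was 0.52 on restraint and 0.80 on control arrays (n = 10 each), and 4 control arrays of experiment 1 and 2 of experiment 2 lay below every restraint array. The change of 0.87 ± 0.27 SE did not pass (limma adjusted p = 0.0979).

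Cd74, the invariant chain, had lowest, median and highest levels of 9.47, 10.31 and 10.72 on restraint arrays, against 8.41, 9.25 and 10.60 on control arrays. On 9 of 10 restraint arrays it exceeded the control mean of the experiment, and the ranges overlapped. The change was 0.78 ± 0.22 SE, or 0.69 ± 0.20 SE for the second probe, and neither passed (limma adjusted p = 0.0705 and 0.0735).

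**Figure D1:**
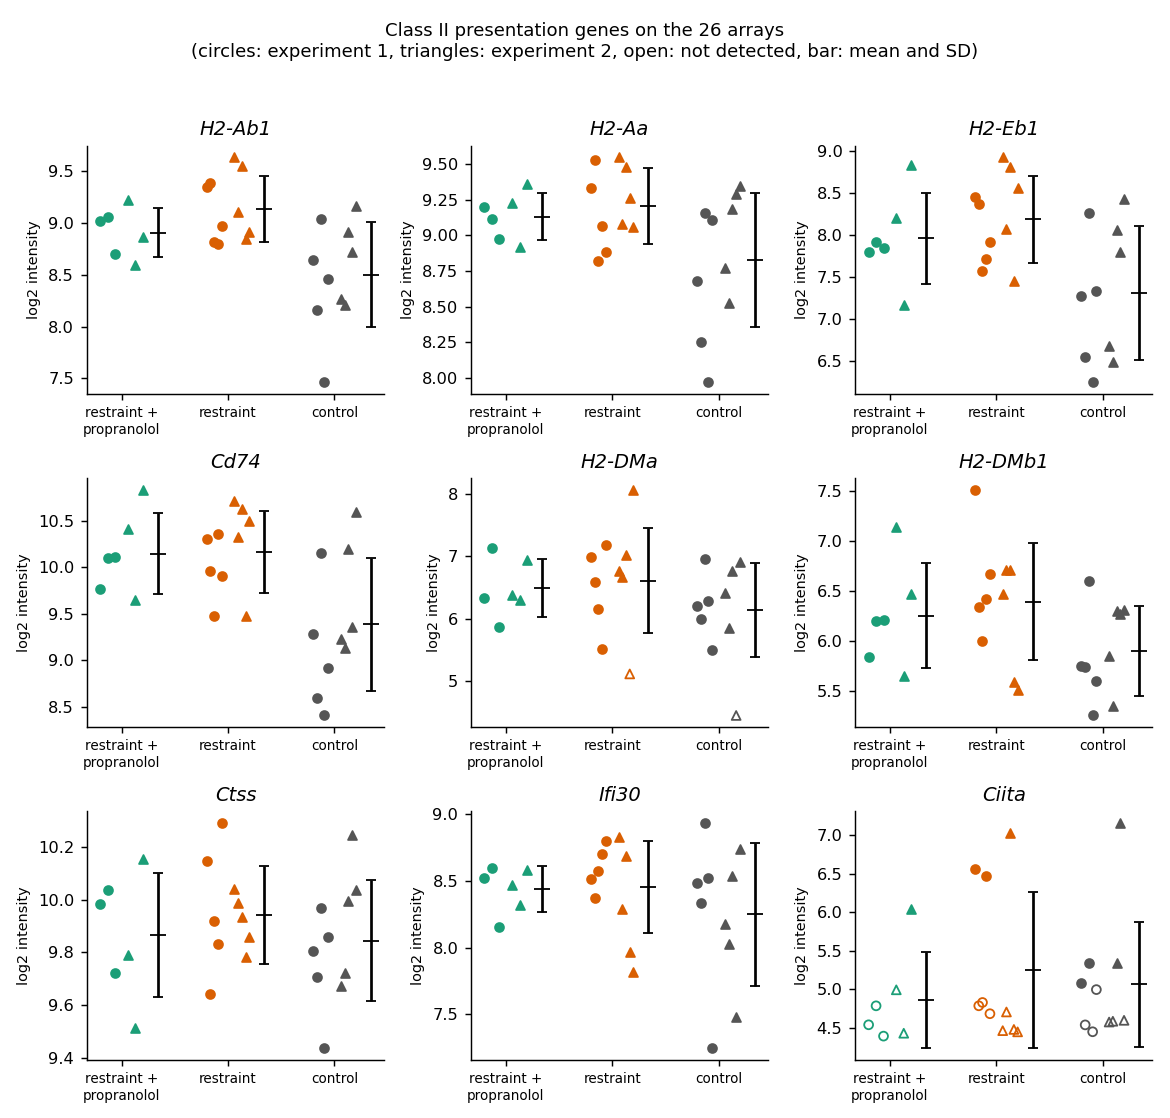
Log2 intensity of the 9 genes (vertical axes, each with its own range) on 6 restraint plus propranolol, 10 restraint and 10 control arrays. Circles are arrays of experiment 1 and triangles those of experiment 2, open symbols are arrays where the probe was not detected, and the bars at the side give the mean and SD of the condition. H2-Ab1 averaged 8.91, 9.14 and 8.50 in these conditions, and the control arrays of H2-Ab1, H2-Aa, H2-Eb1 and Cd74 reach lower than the other conditions while their upper ends overlap with them.

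Of the genes that load, trim or unfold the cargo, 0 passed. The exchange factor chain H2-DMa averaged 6.60 ± 0.84 in restraint and 6.13 ± 0.75 in control arrays, and its partner H2-DMb1 averaged 6.40 ± 0.59 in restraint and 5.91 ± 0.45 in control arrays (SD, n = 10 each). Their changes of 0.47 ± 0.32 SE and 0.49 ± 0.23 SE did not pass (limma adjusted p = 0.553 and 0.326). On 1 restraint and 1 control array H2-DMa was not detected. H2-DMb1 and H2-DMb2 are close copies of each other, and a probe may read both.

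Cathepsin S differed least. Ctss spanned 9.64 to 10.29 on restraint and 9.44 to 10.25 on control arrays, with 6 of 10 restraint arrays above the control mean of their experiment. Its change was 0.10 ± 0.11 SE (95% interval -0.12 to 0.32; limma adjusted p = 0.744). This interval overlaps that of H2-Ab1, 0.29 to 0.99, and a difference between the genes was not tested. For Ifi30, the reductase GILT, both probes gave 0.21 (SE 0.18 and 0.13; limma adjusted p = 0.665 and 0.521).

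The transactivator gene was mostly below detection. Ciita was detected on 1 of 6 restraint plus propranolol, 3 of 10 restraint and 4 of 10 control arrays. The detected arrays read 6.04 under restraint plus propranolol, 6.57, 6.47 and 7.02 under restraint, and 5.09, 5.34, 5.34 and 7.16 under control. All other arrays lay between 4.39 and 5.00 and count as not detected. The fitted restraint change of 0.18 ± 0.37 SE (limma adjusted p = 0.880) therefore rests on few measured levels, and neither a rise nor a fall was detectable.

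**Figure D2:**
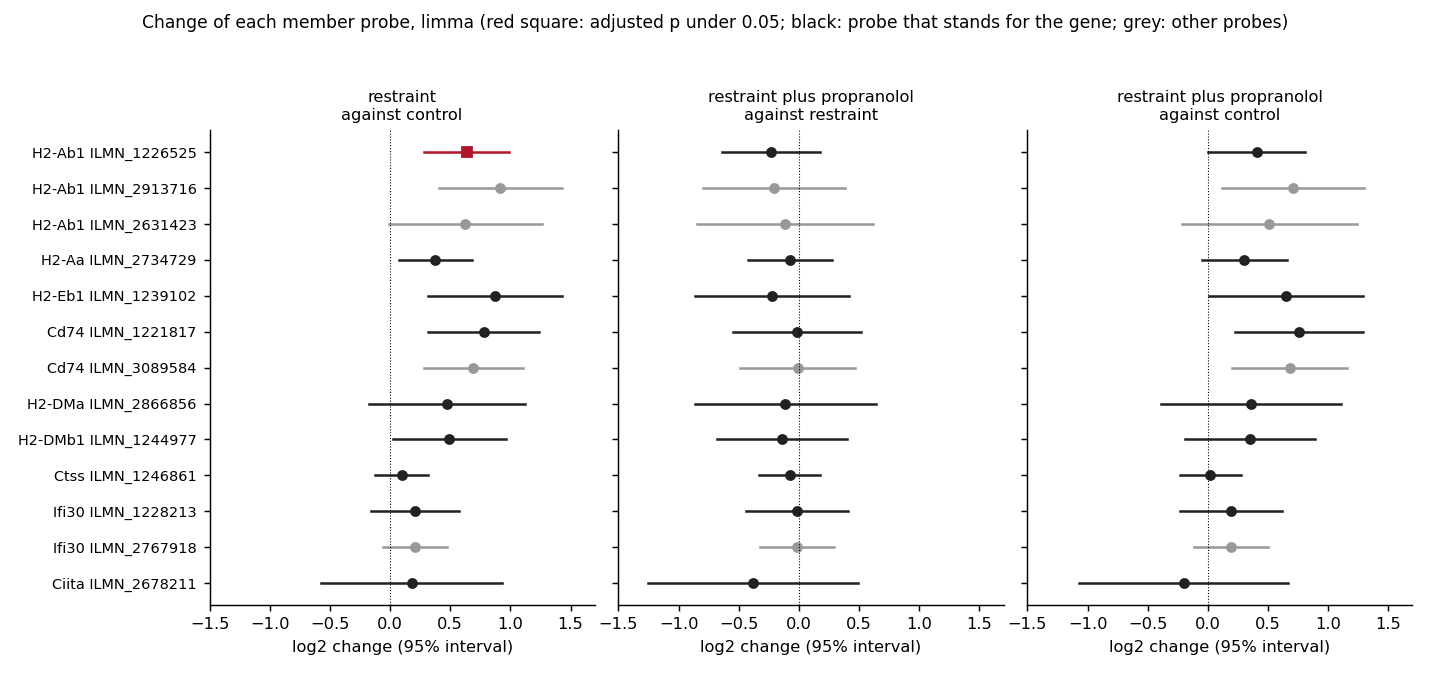
Log2 change (horizontal axis) with its 95% interval for the 13 member probes in the 3 comparisons. The red square is the probe with a limma adjusted p under 0.05 (H2-Ab1, restraint against control, 0.64), black circles are the other probes that stand for their gene, and grey circles are further probes. Probes of the 9 genes lie right of 0 for restraint against control and slightly left of 0 for restraint plus propranolol against restraint.

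The restraint change could be compared between the experiments. For H2-Ab1 it was 0.71 ± 0.25 SE in experiment 1 and 0.56 ± 0.25 SE in experiment 2, and for H2-Eb1 0.87 ± 0.40 SE in both. Cd74 gave 0.93 ± 0.33 SE and 0.63 ± 0.33 SE. H2-DMb1 gave 0.80 ± 0.32 SE and 0.18 ± 0.32 SE, and Ciita 0.59 ± 0.52 SE and -0.23 ± 0.52 SE. The test of the difference between experiments called 0 of the 10927 genes in limma, 0 members among them, with 363 genes at an unadjusted p under 0.05.

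**Figure D3:**
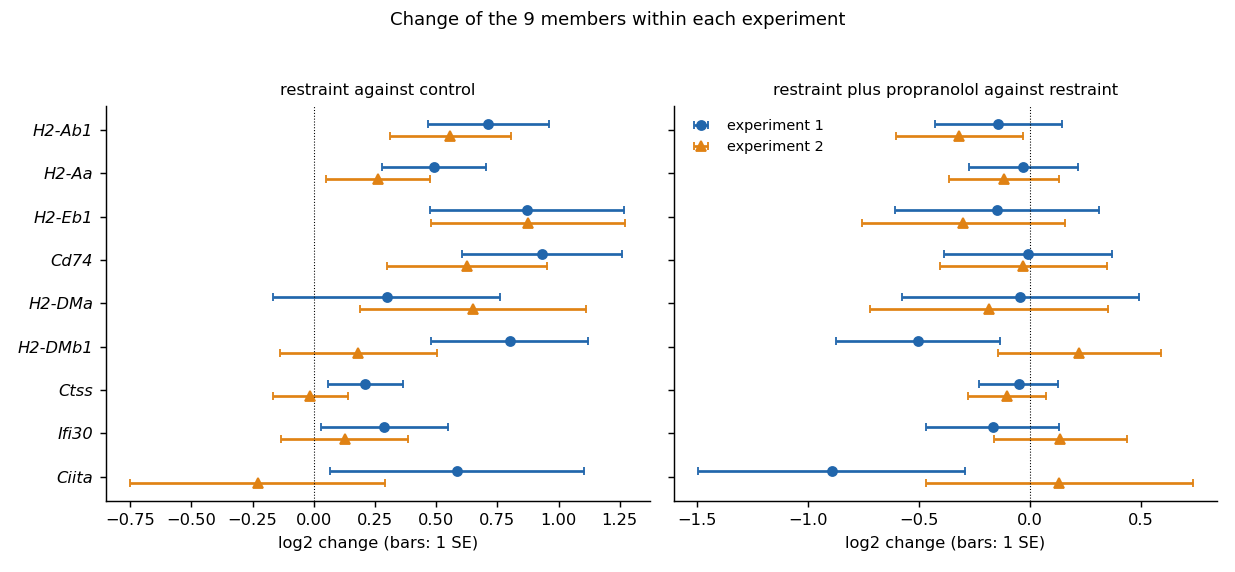
Log2 change (horizontal axis, bars of 1 SE) of the 9 genes within experiment 1 (blue circles) and experiment 2 (orange triangles), for restraint against control on the left and restraint plus propranolol against restraint on the right. The restraint change of H2-Ab1, H2-Aa, H2-Eb1 and Cd74 lies above 0 in both experiments, while Ctss and Ciita change sign between them.

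The arrays lie on 4 slides, and 2 slides hold both restraint and control arrays of 1 experiment. On slide 1 (experiment 1, 3 restraint and 5 control arrays) the H2-Ab1 difference was 0.83 (exact permutation p = 0.0714, 2-sided, smallest possible 0.0179), and on slide 3 (experiment 2, 5 restraint and 2 control arrays) it was 0.27 (exact permutation p = 0.476, smallest possible 0.0476). For Cd74 these differences were 0.84 and 0.35, for H2-Eb1 1.00 and 0.25, and for H2-Aa 0.59 and -0.03. The exact tests within slides, 9 members on each, were not adjusted for their number. With slide as a fixed term the H2-Ab1 change was 0.58 and no longer passed (limma adjusted p = 0.237). A random block for slide gave 0.64 (limma adjusted p = 0.0488). The call sits close to the threshold. When 1 array at a time was left out, 7 of the 26 fits kept it, with changes from 0.52 to 0.71 and limma adjusted p from 0.0233 to 0.0995. Those 7 left out control array 3 of experiment 1, control arrays 3, 4 and 5 or restraint array 4 of experiment 2, or restraint plus propranolol array 2 or 3 of experiment 2. Without control array 3 of experiment 1, or without control array 5 of experiment 2, 3 members passed: H2-Ab1, H2-Eb1 and Cd74.

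The comparison of restraint plus propranolol with restraint asks whether blocking beta-adrenergic receptors alters the response. No difference in any member was detectable. In limma, 0 of 9 members passed, as did 0 of all 10927 genes (0%), of which 673 had an unadjusted p under 0.05. The change was below 0 in every member, with a median of -0.11 beside -0.01 over all genes. These changes and those of restraint against control share the restraint arrays, so the directions are not independent.

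H2-Ab1 read 9.02, 9.06 and 8.70 on the restraint plus propranolol arrays of experiment 1 and 9.22, 8.59 and 8.87 on those of experiment 2. Of these 6 arrays, 4 lay within the range of the restraint arrays and 2 lay under it. The change against restraint was -0.23 ± 0.20 SE (95% interval -0.64 to 0.17; limma adjusted p = 0.890). This interval holds 0 and reaches down to about the size of the restraint change, 0.64.

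For Cd74 the lowest, median and highest levels were 9.65, 10.11 and 10.83 with propranolol, against 9.47, 10.31 and 10.72 under restraint alone. Its change was -0.02 ± 0.26 SE (95% interval -0.55 to 0.51; limma adjusted p = 0.994). The restraint change of Cd74, 0.78, had a 95% interval of 0.32 to 1.24 and rests on the same restraint arrays. Whether propranolol undid that change was not tested. H2-Eb1 changed by -0.23 ± 0.31 SE and H2-Aa by -0.07 ± 0.17 SE (limma adjusted p = 0.939 and 0.967). The widest interval was that of Ciita, from -1.25 to 0.49, which was not detected on any of the 3 propranolol arrays of experiment 1. The other 4 members had changes between -0.14 (H2-DMb1) and -0.02 (Ifi30).

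Within slides, propranolol and restraint arrays met on slide 2 (experiment 1, 3 propranolol and 2 restraint arrays) and on slide 3 (experiment 2, 1 propranolol and 5 restraint arrays). H2-Ab1 differed by 0.04 and 0.01 there, and Cd74 by -0.14 and 0.09 (exact permutation p from 0.600 to 1.000, 2-sided, with 0.1 and 0.167 the smallest possible). The widest differences were those of Ciita on slide 2, -1.01 (exact permutation p = 0.2), and of H2-DMb1, which differed by -0.46 on slide 2 (exact permutation p = 0.1) and by 0.95 on slide 3 (exact permutation p = 0.333). Slide 3 held a single propranolol array, and Ciita was below detection on the 3 propranolol arrays of slide 2. The test of the difference between experiments called 0 genes in limma, with 563 at an unadjusted p under 0.05.

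Restraint plus propranolol was also set against control. In limma, 0 of 9 members passed while 413 of 10927 genes did (3.78%). The change was above 0 in 8 of 9 members, with a median of 0.35 beside -0.02 over all genes. The control arrays are those of the restraint comparison. Cd74 averaged 10.15 ± 0.43 on propranolol arrays (SD, n = 6) and 9.39 ± 0.72 on control arrays (SD, n = 10), a change of 0.76 ± 0.26 SE (limma adjusted p = 0.104). H2-Eb1 changed by 0.65 ± 0.31 SE, H2-Ab1 by 0.41 ± 0.20 SE and H2-Aa by 0.30 ± 0.17 SE (limma adjusted p = 0.267, 0.272 and 0.351). Ciita, at -0.20 ± 0.42 SE, was the member below 0. Without control array 3 of experiment 1, or without control array 5 of experiment 2, Cd74 passed (limma adjusted p = 0.0428 and 0.0465).

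Once the 6 group means were removed, the class II chain genes and the invariant chain varied together from array to array. Over the 26 arrays the 6 Pearson correlations among H2-Aa, H2-Ab1, H2-Eb1 and Cd74 lay between 0.65 (H2-Aa with Cd74) and 0.89 (H2-Eb1 with Cd74). H2-DMb1 followed them, with 0.55 to 0.72, whereas H2-DMa ranged from 0.04 with H2-Aa to 0.53 with Cd74. Ctss stood at 0.51 to 0.66 with these 4 genes, Ifi30 at 0.03 to 0.52 and the mostly undetected Ciita at 0.33 to 0.44. The arrays share slides, amplification and the mix of cells sorted, so these values are descriptions. Probes of 1 gene correlated at 0.97 for the 2 of Cd74, at 0.56 to 0.78 for the 3 of H2-Ab1 and at 0.49 for the 2 of Ifi30.

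**Figure D4:**
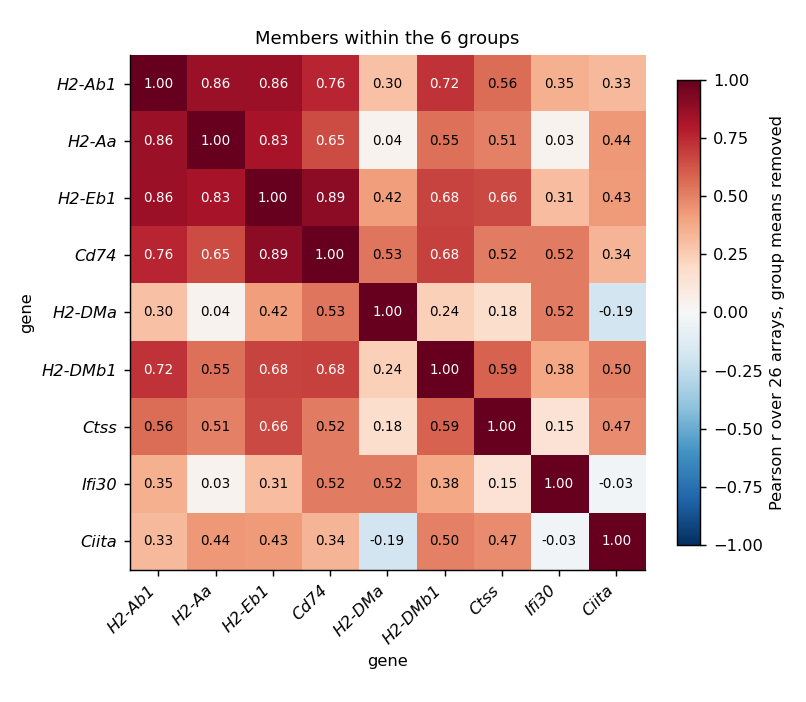
Pearson correlation (colour and printed value) between each pair of the 9 genes over 26 arrays after the mean of each of the 6 groups was removed. H2-Ab1, H2-Aa, H2-Eb1 and Cd74 form the block of high values, from 0.65 to 0.89, and H2-DMa and Ifi30 lie near 0 beside H2-Aa, at 0.04 and 0.03.

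The mean of these 4 genes on an array, each centred on its own average, gave a class II score. Among 10918 other genes, the highest within-group correlations with it were those of H2-Ea (0.96), LOC641240 (0.93), 4930506M07Rik (0.88), Zfp36l1 (0.79) and Trem2, Igsf8, Cyp4f16, Ckb, Cd83 and Ccl9 (0.75 to 0.78). Over all genes the 5th and 95th percentiles were -0.41 and 0.38. H2-Ea encodes the alpha chain that pairs with H2-Eb1, and the raw matrix describes LOC641240 as resembling a class II beta chain, so its probe may read a member's transcript. Trem2 is a receptor of macrophages, and Cd83 appears on the surface of mature dendritic cells. For Ciita the first were Spic (0.81), a factor of iron-recycling macrophages, Sdhb (0.80), BC011426 (0.79), Dexi (0.76), which lies next to Ciita in the genome, and Fabp5 (0.76). With the 2 arrays farthest from the median left out these fell to between 0.54 and 0.68.

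Of the remaining class II genes, H2-Ea was detected on all 26 arrays and averaged 10.26 ± 0.24 in restraint plus propranolol (SD, n = 6), 10.42 ± 0.31 in restraint and 9.95 ± 0.46 in control arrays (SD, n = 10 each). Its restraint change was 0.47 ± 0.16 SE (limma adjusted p = 0.141). H2-DMb2 changed by 0.53 ± 0.20 SE (limma adjusted p = 0.198). The chains of H2-DO, a brake on DM that is typical of B cells, were detected on 5 (H2-Oa) and 7 (H2-Ob) arrays and changed by 0.15 ± 0.17 SE and 0.18 ± 0.24 SE under restraint (limma adjusted p = 0.745 and 0.805). H2-Eb2, a further E beta gene listed as A130038H09Rik on the array, was detected on 11 arrays, and its restraint change was below 0, at -0.29 ± 0.19 SE (limma adjusted p = 0.544). Of this list, 5 of 6 genes were tested and 0 passed in any of the 3 comparisons.

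Among 19 factors that act on class II promoters or in the signalling upstream of them, 17 were tested, with a median restraint change of 0.03. Against control, Ifngr1, a chain of the interferon gamma receptor, changed by 0.53 ± 0.13 SE with propranolol (limma adjusted p = 0.0200) and by 0.41 ± 0.11 SE under restraint alone (limma adjusted p = 0.0528). Of the RFX subunits that bind the X box, Rfxap was detected throughout and changed by 0.03 ± 0.13 SE (limma adjusted p = 0.953). Rfx5 and Rfxank were each detected on 1 array and were not tested.

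Of 15 genes for lysosomal proteases, their inhibitors and other lysosomal proteins, 0 passed in any comparison, with a median restraint change of 0.13. Lgmn, a protease that opens antigens and the invariant chain, changed by 0.26 ± 0.35 SE, Ctsl by 0.15 ± 0.28 SE and the inhibitor Cst3 by 0.23 ± 0.13 SE (limma adjusted p = 0.795, 0.869 and 0.444). Class I presentation gave the same count, with 0 of 17 tested genes passing and a median restraint change of 0.09. Its light chain B2m changed by 0.08 ± 0.08 SE (limma adjusted p = 0.711). Nlrc5 was not matched by symbol.

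Partners at the cell surface included genes that passed. Of 9 genes for co-stimulation and class II turnover, 3 rose under restraint, with a list median of 0.25. Cd83, which keeps class II molecules at the surface by opposing the ubiquitin ligase March1, changed by 1.58 ± 0.17 SE (limma adjusted p = 2.0e-05). The T cell co-stimulators Cd80 and Cd86 changed by 0.85 ± 0.20 SE and 0.82 ± 0.22 SE (limma adjusted p = 0.0289 and 0.0420). March1 itself changed by -0.13 ± 0.12 SE (limma adjusted p = 0.677). Against control, Cd83 and Cd86 also passed with propranolol, by 1.94 ± 0.20 SE and 1.35 ± 0.25 SE (limma adjusted p = 5.8e-06 and 0.00234).

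Markers of some other marrow cells also differed between restraint and control, and those of the erythroid and B lineages went the opposite way to the class II genes. In bulk RNA, fewer cells of a type and less RNA per cell cannot be told apart. Of 13 erythroid markers, 7 fell under restraint in limma, among them Klf1, Alas2, Rhd, Eraf and Gata1, 13 of 13 had a change below 0 and the median was -2.02. Their summed intensity spanned 531 to 10157 on restraint plus propranolol, 959 to 3700.0 on restraint and 1626 to 14282 on control arrays. Of the B lineage list, 13 of 16 genes are on the array and 8 were tested. Rag1 and Vpreb3 of these fell under restraint, and the median was -0.55. Vpreb3 was detected on 4 arrays only and averaged 4.54 on restraint and 4.96 on control arrays. Its fall therefore rests on few measured levels. Rag1 was detected on 15 arrays and averaged 4.97 on restraint and 7.02 on control arrays. Ms4a1, Pax5, Rag2 and Cr2 were detected on no array. The summed B lineage intensity spanned 605 to 997 on restraint plus propranolol, 610 to 907 on restraint and 664 to 2325 on control arrays.

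Of 17 macrophage markers, 13 were tested and Hmox1 rose, with a median of 0.23. C1qa, Cd5l and Siglec1 were detected on no array, and the list's sum spanned 3143 to 4463 on restraint plus propranolol, 3374 to 5278 on restraint and 2968 to 5306 on control arrays. Of 16 dendritic cell markers, 12 were tested and 0 passed under restraint, with a median of 0.21. Xcr1 and Batf3 were detected on no array, and the sum spanned 2831 to 3755 on restraint plus propranolol, 3349 to 4530 on restraint and 2655 to 4452 on control arrays. Of 14 monocyte markers, Cd14 rose under restraint, with a list median of 0.13 and sums of 6598 to 7556 on restraint plus propranolol, 5693 to 7875 on restraint and 4907 to 7468 on control arrays.

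Array by array, the class II score ran against the erythroid markers. It spanned -0.30 to 0.59 on restraint plus propranolol, -0.21 to 0.82 on restraint and -1.36 to 0.50 on control arrays. The lowest score of all, on control array 4 of experiment 1, stood beside the highest erythroid mean, 9.12. Control array 3 of the same experiment had a score of 0.27 and an erythroid mean of 5.53, within the restraint range of 5.05 to 7.09. Array 2 of experiment 2 had the lowest score with propranolol, -0.30, and the highest erythroid mean of its condition, 8.29.

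Within groups, the correlation of the class II score over 26 arrays was -0.80 with the erythroid mean and -0.78 with the B lineage mean, against 0.80 with the macrophage mean, 0.70 with the dendritic cell mean, 0.52 with the monocyte mean and 0.51 with the mean of 6 stromal and endothelial markers. Without the 2 arrays of most extreme score these values were -0.73, -0.67, 0.75, 0.51, 0.35 and 0.47. Each value pools arrays of several groups. In the same order they were -0.83, -0.84, 0.75, 0.85, 0.42 and 0.61 in experiment 1. In experiment 2 they were -0.78, -0.72, 0.88, 0.53, 0.82 and 0.42. Over all 26 arrays the correlation was -0.17 for neutrophil and 0.03 for pan-leukocyte markers. The part of these cell types in the restraint change of class II genes was not tested.

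**Figure D5:**
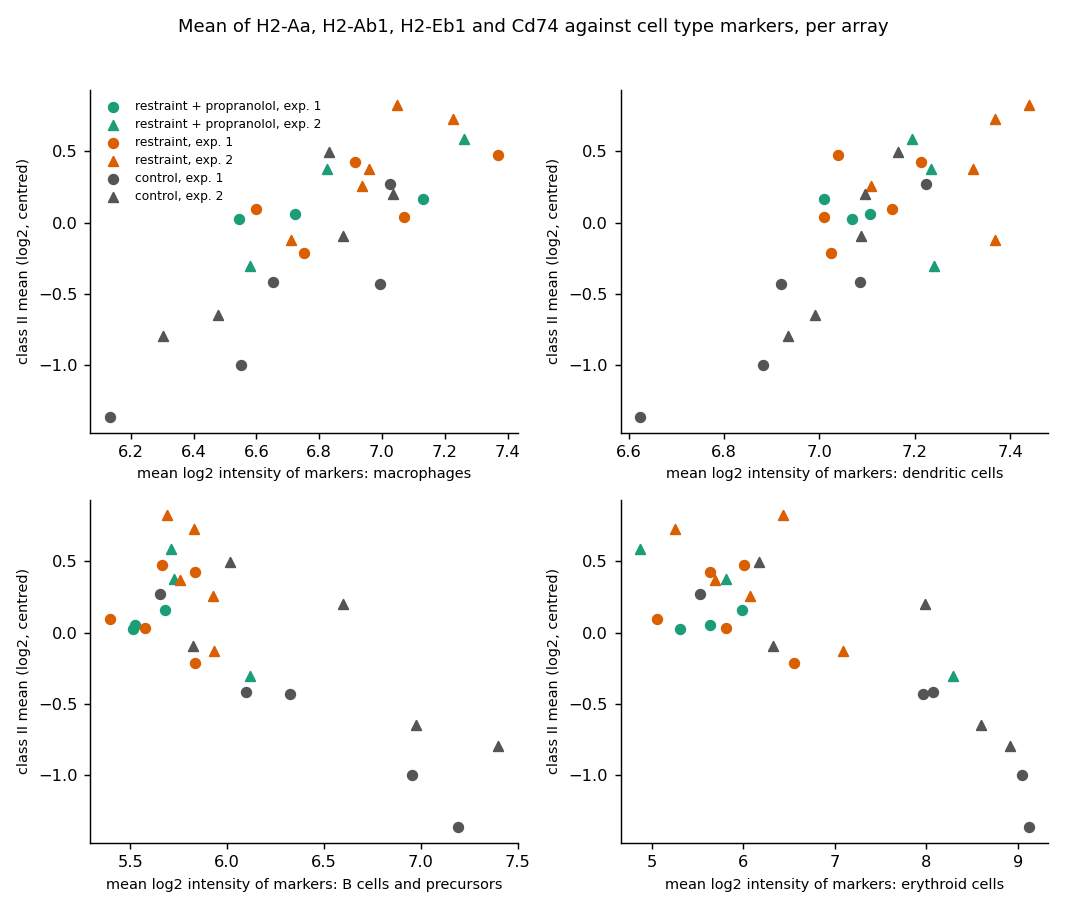
Class II score of each array (vertical axes: mean log2 intensity of H2-Aa, H2-Ab1, H2-Eb1 and Cd74, each centred on its mean over 26 arrays) against the mean log2 intensity of markers of macrophages, dendritic cells, B lineage and erythroid cells (horizontal axes). Colours give the condition and shapes the experiment. The control arrays with the lowest scores, down to -1.36, have the highest erythroid and B lineage means, and the control arrays with low erythroid means lie among those of restraint.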

How the data were processed

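RNA of sorted femoral marrow leukocytes was amplified and biotinylated with NuGEN kits and hybridised to Illumina MouseRef-8 v2.0 arrays, per the labels' protocols. The submitters' processing notes name GenomeStudio, with no version. The deposited raw matrix gives each probe's average bead intensity on each array, not scaled between arrays. Per the file headers, it also gives a detection p-value and the number of beads, a count whose median per array was 34 to 40. A second, normalized matrix of the authors, in linear intensity units and made by a method not given in the sources used here, served as an alternative. 6 arrays of the raw matrix that the labels put in no group were not used.

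Background correction, quantile normalization and log2 transformation used limma's neqc procedure (offset 16, negative controls inferred from the detection p-values). Of 25697 probes, 15061 passed a detection p of 0.05 on 3 or more arrays. They were tested with condition and experiment as terms, Benjamini-Hochberg adjusted over all of them. Changes within an experiment, and their difference between experiments, came from a model of all 6 groups. A 95% interval is that of a single probe. Members and gene lists were chosen with earlier results of these data known. Named genes are the members, list genes called in any comparison (some are not reported here), 14 list genes whatever their values, and the genes most like the class II score or Ciita. The labels share replicate numbers between groups, but of 22 same-numbered pairs 4 had correlated deviations above 0.1 (median 0.02), so the numbers were not used as pairs. No 2 arrays were identical. The number of arrays limits precision. Alternatives changed the filter, background correction, scaling, probe choice, weights, slide, block or arrays used. Software was limma 3.58.1 in R 4.3.3, and matplotlib 3.10.9 in Python 3.11.15.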

Additional observations from a re-analysis of the deposited data

Results flagged for a closer look

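1 array stood apart in its group: restraint array 3 of experiment 2 read 7.02 for Ciita, while the other 4 arrays of that group read 4.45 to 4.71 and were below detection. Its gap to the nearest other array was 0.90 of the range of the group. 36 sets of 5 arrays were examined in this way, and for normally spread values chance gives about 1 such case in 20 sets. The other 4 values lay below detection, where this rate was not tested. Without this array the restraint change of Ciita was -0.02.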

How the results depend on the processing

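The 14 alternatives besides leaving out single arrays kept the restraint change of H2-Aa, H2-Ab1, H2-Eb1, H2-DMa, H2-DMb1 and Cd74 above 0. H2-Ab1 stayed between 0.50 and 0.73 and passed in 6 of them (limma adjusted p from 0.0216 to 0.944). For restraint against control, the genes called and the members called numbered 139 and 0 without a filter on dim probes, 138 and 0 with median scaling, 718 and 3 with array weights, 81 and 0 with slide as a fixed term, 47 and 0 in experiment 1 by itself, 0 and 0 in experiment 2 by itself, and 406 and 0 without the 3 arrays of lowest weight, a choice made after seeing the data. These 3 were restraint plus propranolol array 3 of experiment 2, control array 4 of experiment 2 and control array 5 of experiment 1. With the mean of a gene's probes, or with the arrays of the compared conditions alone, 0 members passed. For restraint plus propranolol against restraint, array weights called 7 genes and the compared arrays alone 1. For restraint plus propranolol against control the counts were 933 with array weights, 25 with slide as a fixed term, 110 in experiment 1, 2 in experiment 2 and 242 with the replicate block. With that replicate block, H2-Ab1 changed by 0.64 under restraint (limma adjusted p = 0.0450), and no member's call changed. The difference between experiments under restraint called 1 gene with array weights. The cause of these shifts was not tested.

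Leaving out 1 array at a time gave 110 to 343 genes and 0 to 3 members for restraint against control, 0 to 2 genes and 0 members for restraint plus propranolol against restraint, and 237 to 507 genes and 0 to 1 members for restraint plus propranolol against control. The difference between experiments called 0 genes, 0 to 17 and 0 to 6 in the same order of comparisons.

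The changes that crossed 0 were those of members that passed in no fit of the same comparison. Under restraint, Ciita came to -0.0467 and Ctss to -0.0137 with slide as a fixed term, Ciita to -0.23 and Ctss to -0.0141 in experiment 2, and Ifi30 to -0.0144 without the 3 arrays. For restraint plus propranolol against restraint, median scaling gave 0.0493 for H2-Aa, 0.14 for Cd74, 0.0654 for Ctss and 0.0884 for Ifi30, slide as a fixed term 0.0045 for H2-Aa and 0.0643 for H2-DMb1, and experiment 2 gave 0.22 for H2-DMb1, 0.13 for Ciita and 0.14 for Ifi30. For restraint plus propranolol against control, Ifi30 came to -0.0094 with array weights and -0.0782 without the 3 arrays, H2-DMa to -0.0069 without them, and Ctss to -0.18 with slide as a fixed term and -0.12 in experiment 2. When single arrays were left out, Ciita spanned -0.0214 to 0.42 under restraint. In the same fits, restraint plus propranolol against restraint gave -0.292 to 0.0496 for H2-DMa, -0.12 to 0.13 for Cd74, -0.134 to 3.4e-04 for Ctss and -0.0816 to 0.0588 for Ifi30. Restraint plus propranolol against control gave -0.439 to 0.0341 for Ciita and -0.0353 to 0.0988 for Ctss.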
